A study of Homo sapiens with 12 samples.

Results

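Calu-6 is a human lung cancer cell line of epithelial origin, grown here as cultures that had received either a pool of scrambled siRNA (siControl) or a pool of siRNA against *LAPTM4B* (siLAPTM4B). The 6 arrays described here, of 12 in the series, came from cells moved on the day after transfection to medium without fetal bovine serum (0% FBS). There were 3 replicates per siRNA, and the sources do not say whether these were separate transfections. Total RNA was taken 48 h after that change of medium, which was 72 h after transfection. The remaining 6 arrays came from the same pair of siRNAs in medium with 10% FBS and enter only where the effect of knockdown is set against that in serum. All cultures had been transfected. One cell line was used, and a single siRNA pool stood for the knockdown, so an effect of the pool itself cannot be told apart from that of the lowered transcript. Results cover the 19460 array features annotated with a single gene symbol, 18417 genes in all.

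*LAPTM4B* encodes a protein that spans the membranes of late endosomes and lysosomes. Lysosomes degrade what the cell takes in and what autophagy delivers to them, and their surface is also where mTORC1 reads the supply of amino acids. A cell without serum loses most growth factor input, and many transcripts for secreted factors, surface receptors and nutrient transporters depend on such input. Knockdown in this state therefore asks which of these transcripts *LAPTM4B* bears on when outside signals are scarce.

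Signals were log2 values after robust multi-array averaging (RMA), so a difference of 1 is a doubling of linear signal. Per-array medians lay between 8.46 and 8.48, and correlations within a group were 0.9977 to 0.9987, against at most 0.998 with an array of the other group. The epithelial keratin *KRT8* read 12.76, 12.78 and 12.82 in the siControl arrays and 12.96, 12.95 and 12.99 in the siLAPTM4B arrays, and *KRT18* lay at 12.20 to 12.35 over the 6. Not every such marker was bright or epithelial: the mesenchymal gene *VIM* lay at 13.15 to 13.26 (percentile 99.6 of all features by level). The epithelial cadherin gene *CDH1* was dim, at 6.10 to 6.29 (percentile 14.3). The leukocyte gene *PTPRC* stayed at 5.21 to 5.31 and the fibroblast gene *DCN* at 5.11 to 5.33, at percentiles 2.68 and 2.37 of all features by level. None of the 12 lung epithelial, 15 leukocyte or 10 endothelial markers was called, and of 12 fibroblast markers 2 were called lower, *LUM* (-0.50) and *PDGFRB* (-0.39), with siControl means of 7.15 and 8.08. Summed on the linear scale and taken to log2, the leukocyte markers were at 11.69 to 11.71 in siControl and 11.65 to 11.67 in siLAPTM4B arrays, and the fibroblast markers at 10.94 to 10.98 and 10.91 to 10.97. The lung epithelial markers were at 11.83 to 11.88 in siControl and 11.88 to 11.94 in siLAPTM4B arrays. As this is close to the leukocyte sum, the sums cannot tell which cell types were present. Because these are bulk cultures, fewer cells of a state and less RNA per cell cannot be told apart in any result.

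The targeted transcript was lower in every knockdown array. *LAPTM4B* (probe set 8147503) had signals of 11.94, 11.87 and 11.93 in the siControl arrays and 10.45, 10.50 and 10.54 in the siLAPTM4B arrays. Its log2 fold change, always siLAPTM4B minus siControl and given with its standard error (SE), was -1.42 (SE 0.05, adjusted p = 8.6e-06), with a 95% interval of -1.53 to -1.32. The fit was limma's moderated test over the 6 arrays, with p adjusted by Benjamini-Hochberg over all 19460 features, and a gene is said to have risen or fallen only where that adjusted p was under 0.05. The other members of the family did not pass. *LAPTM4A*, which sits on the same compartments, differed by -0.05 (adjusted p = 0.63), and *LAPTM5*, best known from blood cells, by 0.25 (adjusted p = 0.074) with its siLAPTM4B arrays all above its siControl arrays.

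Knockdown without serum lowered more transcripts than it raised. Of the 19460 features 454 were called (2.33%), 339 lower and 115 higher. In all 454 the 3 siLAPTM4B arrays lay apart from the 3 siControl arrays, as they did for 21.3% of all features. Counted once per gene, 328 of 18417 genes were lower (1.78%) and 109 were higher (0.592%), and these shares are the background for the gene lists below. The median log2 fold change over all features was 0.00676, and 46.5% of features had a negative one. RMA equalises the distributions of the arrays, so a shift shared by most transcripts would not show in these values.

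Most changes were modest in size. Among the falls 172 exceeded 1.25-fold, 28 exceeded 1.5-fold and 5 exceeded 2-fold, namely *LAPTM4B*, *SPP1*, *PTGS2*, *IL7R* and *FGF7*, which are described with their groups below. Of the rises 47 exceeded 1.25-fold and 2 exceeded 1.5-fold, *SPON1* and *RNF182*, while 0 exceeded 2-fold. The median called fall was -0.325 and the median called rise 0.294 on the log2 scale. Calls were spread over the signal range: from the dimmest to the brightest quartile of features there were 26, 90, 125 and 98 falls and 9, 21, 44 and 41 rises. Of the called features 332 falls and 111 rises belonged to protein-coding genes. Among 24 called genes with several features, all features had the same sign in 23, and all features were called in 10.

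**Figure D1:**
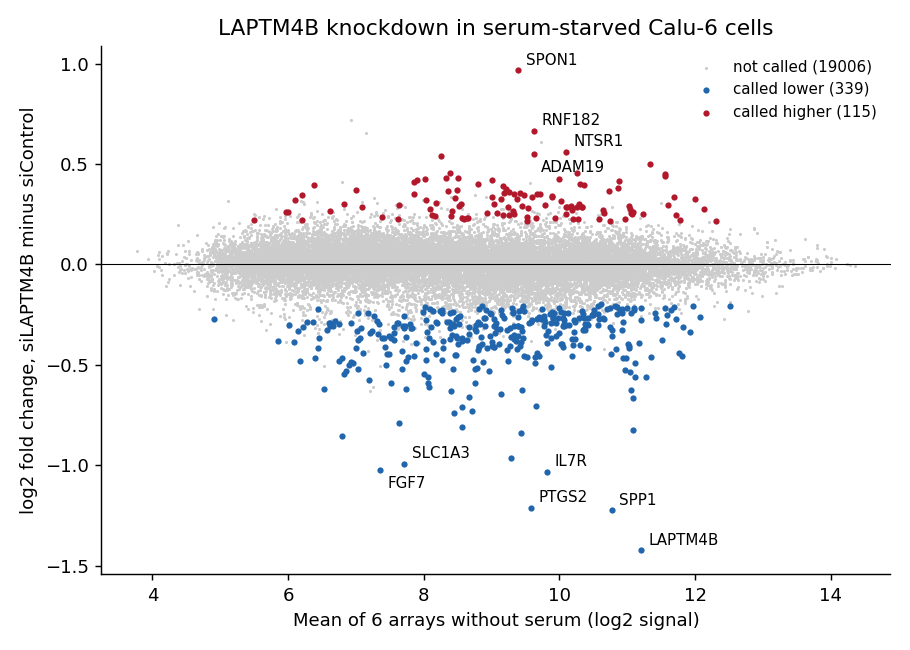
Each point is 1 of the 19460 single-symbol features, with the mean log2 signal of the 6 arrays without serum on the x axis and the log2 fold change (siLAPTM4B minus siControl) on the y axis. Blue points are the 339 features called lower and red points the 115 called higher, and the falls reach further from 0 than the rises.

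The number of calls rested on all 6 arrays. With 1 array left out it was 118 to 290, and it was lowest without siLAPTM4B replicate 2 (93 lower, 25 higher), followed by 157 without siControl replicate 2, 168 without siControl replicate 3, 187 without siControl replicate 1, 232 without siLAPTM4B replicate 1 and 290 without siLAPTM4B replicate 3. Of the 454 features 105 were called in each of these 6 fits and 134 in none of them. When limma was fitted to all 33252 features of the array, with or without a gene symbol, 134 were called, 116 of them among the 454. That fit changes the prior variance as well as the adjustment of p, and the 2 were not separated. For most groups of genes below it is therefore said which calls held without any one array and which held over all features, with the highest adjusted p where a call was lost.

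**Figure D2:**
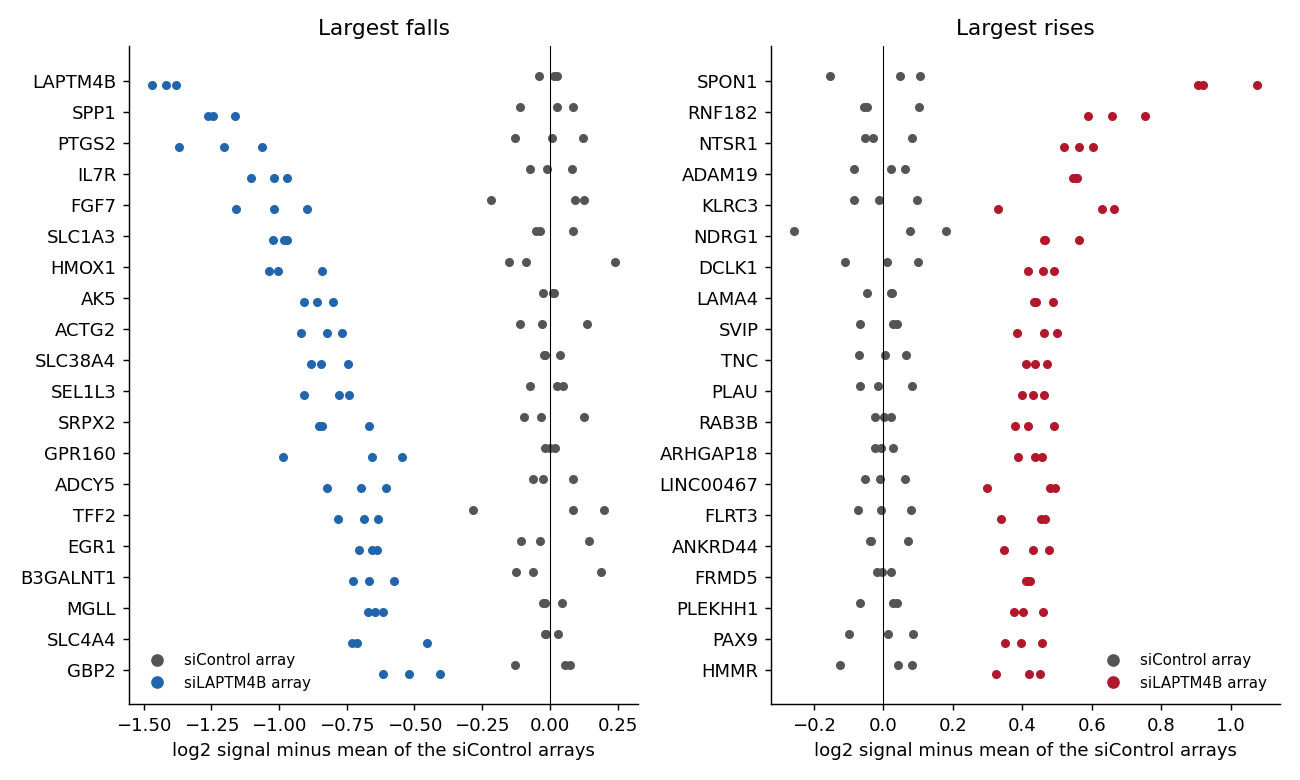
Signals of the 20 genes with the largest falls (left) and the 20 with the largest rises (right), 1 row per gene, as log2 signal minus the mean of the gene's 3 siControl arrays (grey). GBP2 ranks among the falls by its dimmer feature but is drawn at its brighter feature, with a smaller log2 fold change of -0.51. Coloured points are the 3 siLAPTM4B arrays, and in every row they lie to one side of the grey points.

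Genes for secreted proteins of the matrix held the largest rise and, after *LAPTM4B*, the largest fall. *SPP1*, which encodes osteopontin, a phosphoprotein that binds integrins and CD44, read 11.47, 11.27 and 11.41 in the siControl arrays and 10.12, 10.14 and 10.22 in the siLAPTM4B arrays. That was a log2 fold change of -1.22 (SE 0.06, adjusted p = 0.00014), and the lowest siControl array was more than 1 log2 unit above the highest siLAPTM4B array. *SPON1*, the gene of the matrix protein spondin 1, moved the other way, at 8.96, 8.76 and 9.02 in the siControl arrays and 9.82, 9.83 and 9.99 in the siLAPTM4B arrays. Its log2 fold change of 0.97 (SE 0.08, adjusted p = 0.0013) was the largest rise of any gene. Tenascin C (*TNC*), an anti-adhesive matrix glycoprotein, also rose, by 0.44 (SE 0.05), while thrombospondin 1 (*THBS1*) fell, with -0.34, and so did the collagen-binding glycoprotein *SPARC*, with -0.21. In all 2 of 25 measured matricellular genes rose and 3 fell, with a list median of -0.00968. *SPP1*, *SPON1* and *TNC* kept their calls without any one array and over all features. *THBS1* and *SPARC* lost their calls without 3 to 6 of the 6 arrays in turn (adjusted p at most 0.16, without siControl replicate 3).

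Other matrix components that changed were on no list or on a list of their own, and those on none were picked out after their values had been seen. *SRPX2*, which encodes a ligand of the urokinase receptor, had signals of 8.16, 8.001 and 7.94 in the siControl arrays and 7.19, 7.18 and 7.37 in the siLAPTM4B arrays and a log2 fold change of -0.79 (SE 0.07, adjusted p = 0.0023). Lumican (*LUM*), a small proteoglycan and with *PDGFRB* 1 of 2 called among 12 fibroblast markers, fell by 0.50 (SE 0.08) and lysyl oxidase (*LOX*), which cross-links collagen, fell by 0.41 (SE 0.05). *LOX* was the only one of 37 collagens and collagen-modifying enzymes to be called, and their median was 0.0127. Perlecan (*HSPG2*), a basement membrane proteoglycan, rose by 0.26 (SE 0.04), and extracellular matrix protein 1 (*ECM1*) by 0.33 (SE 0.05). *SRPX2* kept its call without any one array, and *SRPX2* and *LOX* were called over all features. *LOX* lost the call without siLAPTM4B replicate 2 (adjusted p = 0.054) and *LUM*, *HSPG2* and *ECM1* lost their calls without 5 of the 6 arrays in turn (adjusted p at most 0.11, without siLAPTM4B replicate 2).

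Laminin and integrin chains that were called were all higher. Laminins are proteins of basement membranes built from several chains, and integrins are the paired surface receptors that hold cells to them. Of 31 measured genes 5 rose (16.1%, beside 0.592% of all genes) and 0 fell, and the list median was 0.0328. The log2 fold change was negative for 13 of the 31, and at an unadjusted p under 0.05 by limma 9 were higher and 2 lower. The laminin chain *LAMA4* read 10.05, 9.98 and 10.05 in the siControl arrays and 10.46, 10.47 and 10.51 in the siLAPTM4B arrays, a rise of 0.45 (SE 0.04, adjusted p = 0.0025). *LAMC1*, the gamma chain shared by most laminins, rose by 0.34 (SE 0.04), and *LAMA5* by 0.25 (SE 0.04). Of the integrins, *ITGA6*, a chain of laminin receptors, was at 12.19, 12.21 and 12.19 in the siControl arrays and 12.37, 12.41 and 12.45 in the siLAPTM4B arrays, and its rise of 0.22 (adjusted p = 0.042) was among the smallest called. *ITGA10*, a collagen-binding chain, rose by 0.36 (SE 0.07). The laminin-binding surface glycoprotein *BCAM*, on no list and chosen after its value was seen, also rose, by 0.34 (SE 0.04). *LAMA4* kept its call without any one array, and *LAMA4*, *LAMC1* and *BCAM* were called over all features. *LAMC1* and *BCAM* lost the call without siLAPTM4B replicate 2 (adjusted p = 0.053) and *LAMA5*, *ITGA6* and *ITGA10* lost their calls without 5 to 6 of the 6 arrays in turn (adjusted p at most 0.16, without siLAPTM4B replicate 2).

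Proteases outside the cell and their inhibitors changed in both directions, with 2 of 41 genes higher and 4 lower. Urokinase (*PLAU*), the protease that makes plasmin from plasminogen, rose by 0.43 (SE 0.05, adjusted p = 0.0049), from 8.23, 8.28 and 8.38 in the siControl arrays to 8.73, 8.76 and 8.70 in the siLAPTM4B arrays. The metalloprotease *ADAM19* rose by 0.55 (SE 0.05, adjusted p = 0.0023), and its 3 siLAPTM4B arrays lay within 9.89 and 9.90. Of the tissue inhibitors of metalloproteases, those called were *TIMP3* and *TIMP4*, both lower. *TIMP3* read 12.01, 12.03 and 12.08 in the siControl arrays and 11.60, 11.56 and 11.59 in the siLAPTM4B arrays. Its log2 fold change was -0.45 (SE 0.04), and *TIMP4* had -0.29. *MMP2*, which degrades basement membrane collagen, had -0.21 and *ADAM17*, the shedding enzyme of many membrane-bound ligands, -0.22. *PLAU*, *ADAM19* and *TIMP3* kept their calls without any one array and over all features. *TIMP4*, *MMP2* and *ADAM17* lost their calls without 3 to 6 of the 6 arrays in turn (adjusted p at most 0.18, without siControl replicate 3).

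Genes for making and sensing prostanoids had the highest share of falls of the 47 gene lists. Prostanoids are lipid signals made from arachidonic acid, which phospholipases and monoacylglycerol lipase release and cyclooxygenases convert. Of 26 measured genes 7 fell (26.9%, beside 1.78% of all genes), 0 rose, and the median log2 fold change was -0.0635. *PTGS2*, the inducible cyclooxygenase, read 10.19, 10.06 and 10.31 in the siControl arrays and 8.82, 8.99 and 9.13 in the siLAPTM4B arrays. Its log2 fold change was -1.21 (SE 0.09, adjusted p = 0.00086), and the spread within each group was well under the gap between the groups. Upstream of it, *MGLL*, which splits monoacylglycerols, was at 9.50, 9.43 and 9.44 in the siControl arrays and 8.81, 8.79 and 8.84 in the siLAPTM4B arrays, a change of -0.64 (SE 0.04, adjusted p = 0.00062), and cytosolic phospholipase A2 (*PLA2G4A*) fell by 0.40 (SE 0.05).

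Downstream members fell too. Thromboxane synthase (*TBXAS1*) was at 8.96, 9.06 and 9.04 in the siControl arrays and 8.47, 8.48 and 8.56 in the siLAPTM4B arrays, a log2 fold change of -0.52 (SE 0.05). The enzyme that inactivates prostaglandins, *HPGD*, fell by 0.40 (SE 0.06) and the prostaglandin F synthase *AKR1C3*, which is on the list of NRF2 targets as well, fell by 0.33 (SE 0.07). Of the receptors, *PTGER2*, which raises cAMP in response to prostaglandin E2, fell by 0.47 (SE 0.08). Its first siControl array, at 8.45, was higher than the others at 8.20 and 8.17. The prostaglandin E synthase *PTGES* (-0.10, adjusted p = 0.47) and the receptor *PTGER4* (-0.06, adjusted p = 0.67), both chosen after their values were seen, did not pass. *PTGS2*, *MGLL*, *PLA2G4A*, *TBXAS1* and *HPGD* kept their calls without any one array, and *PTGS2*, *MGLL*, *PLA2G4A* and *TBXAS1* were called over all features. *AKR1C3* and *PTGER2* lost their calls without 3 to 5 of the 6 arrays in turn (adjusted p at most 0.14, without siControl replicate 3).

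**Figure D3:**
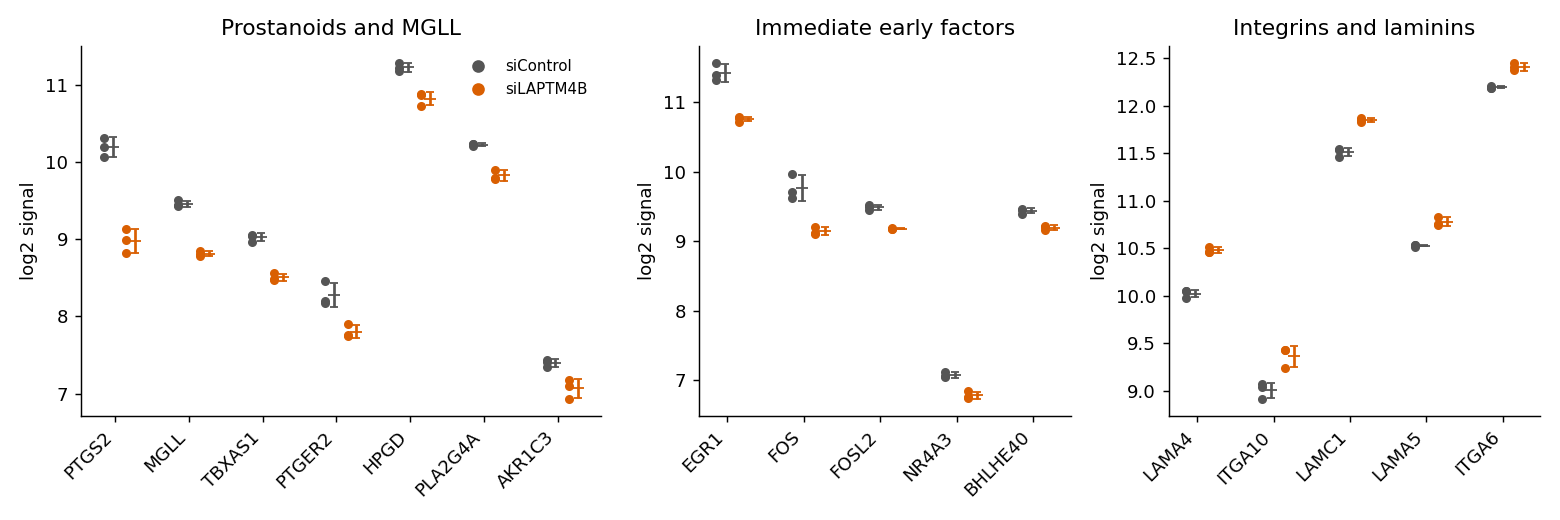
Log2 signals of the called members of 3 gene groups in the 6 arrays without serum, with siControl in grey and siLAPTM4B in orange. Points are arrays, and the mark beside them is the mean with its SD (n = 3), and the 7 prostanoid genes and 5 immediate early factors lie lower after knockdown and the 5 integrin and laminin genes higher.

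Sequence just before the start of transcription can be read for some of these genes. The 250 bases before the RefSeq start of *PTGS2* (GRCh38.p14, chr1:186680424-186680673, minus strand) are shown because it had one of the largest falls, with the core of a cAMP response element (TGACG on either strand) in capitals. Those 5 letters occur once, from 58 to 54 bases before the start on the opposite strand. They are common, as 35.1% of the 14239 measured genes with a RefSeq promoter hold them somewhere in windows of 250 bases before and 50 after a start, 38.4% of 268 lower genes and 32.9% of 82 higher genes.
PTGS2: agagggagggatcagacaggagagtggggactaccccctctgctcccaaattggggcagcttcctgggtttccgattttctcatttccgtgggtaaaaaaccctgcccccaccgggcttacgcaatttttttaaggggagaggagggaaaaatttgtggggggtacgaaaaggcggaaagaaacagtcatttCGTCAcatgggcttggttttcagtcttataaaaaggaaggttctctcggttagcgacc

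Receptors for cytokines fell in 3 of 39 cases and rose in 1, with a median of -0.000943. The interleukin-7 receptor alpha chain (*IL7R*), known from lymphocytes and also found in some carcinoma lines, was at 10.26, 10.33 and 10.42 in the siControl arrays and 9.23, 9.32 and 9.37 in the siLAPTM4B arrays. It fell by 1.03 (SE 0.06, adjusted p = 0.00016). The interleukin-1 receptor accessory chain (*IL1RAP*), without which the interleukin-1 receptor cannot signal, fell by 0.44 (SE 0.06), and gp130 (*IL6ST*), the shared signal chain of the interleukin-6 family, fell by 0.37 (SE 0.05). *IL31RA* rose by 0.34 (SE 0.05), at 6.29 to 6.44 after knockdown against 5.99 to 6.05, which is dim signal. The cytokines *LIF*, a ligand that signals through gp130, and *IL18* were the falls among 30 cytokines and chemokines, with -0.35 (SE 0.06) and -0.27 (SE 0.05). The *IL18* signal, at 4.71 to 5.13 over the 6 arrays and percentile 0.843 of all features by level, was dimmer than that of *PTPRC*, so the size of its change is uncertain. *IL7R* kept its call without any one array and over all features. *IL1RAP* lost the call without siLAPTM4B replicate 2 (adjusted p = 0.055) and *IL6ST*, *IL31RA*, *LIF* and *IL18* lost their calls without 3 to 6 of the 6 arrays in turn (adjusted p at most 0.12, without siLAPTM4B replicate 2).

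Growth factor genes showed 3 falls and 1 rise among 37. *FGF7*, keratinocyte growth factor, read 7.65, 7.96 and 7.99 in the siControl arrays and 6.71, 6.85 and 6.97 in the siLAPTM4B arrays, a log2 fold change of -1.02 (SE 0.10, adjusted p = 0.0025). Its first siControl array was lower than the other 2 and still above every siLAPTM4B array. *GDF15*, a stress-induced member of the TGF-beta family, fell by 0.56 (SE 0.08). The bone morphogenetic proteins split: *BMP4* rose by 0.40 (SE 0.07) and *BMP2* fell by 0.21 (SE 0.04), while the secreted BMP antagonist noggin (*NOG*) rose by 0.23 (SE 0.05). Among 31 growth factor receptors 3 fell and 0 rose. They were the BMP type I receptor *ACVR1* (-0.40), the PDGF receptor *PDGFRB* (-0.39) and *FGFR2* (-0.37), one splice form of which binds FGF7. *FGF7* kept its call without any one array and over all features. *GDF15* lost the call without either siControl replicate 3 or siLAPTM4B replicate 2 (adjusted p = 0.064), *FGFR2* lost the call without either siControl replicate 2 or siControl replicate 3 (adjusted p = 0.058) and *BMP4*, *BMP2*, *NOG*, *ACVR1* and *PDGFRB* lost their calls without 3 to 6 of the 6 arrays in turn (adjusted p at most 0.18, without siLAPTM4B replicate 2).

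G protein coupled receptors, the largest class of surface receptors, gave 2 rises and 5 falls among 39 measured. The neurotensin receptor *NTSR1*, which couples to phospholipase C, rose by 0.56 (SE 0.05, adjusted p = 0.0023), with signals of 9.77, 9.79 and 9.90 in the siControl arrays and 10.34, 10.42 and 10.39 in the siLAPTM4B arrays. *F2RL2*, a protease-activated receptor, fell by 0.53 (SE 0.05) and *GPR39*, a zinc-sensing receptor, fell by 0.39 (SE 0.05). The adenosine receptor *ADORA2B* (-0.29), which like *PTGER2* raises cAMP, and the orphan *GPRC5B* (-0.33) were lower, and its relative *GPRC5A* was higher (0.25). *NTSR1*, *F2RL2* and *GPR39* kept their calls without any one array, and *NTSR1*, *F2RL2*, *GPR39* and *ADORA2B* were called over all features. *ADORA2B* lost the call without either siControl replicate 2 or siLAPTM4B replicate 2 (adjusted p = 0.057) and *GPRC5B* and *GPRC5A* lost their calls without 4 to 6 of the 6 arrays in turn (adjusted p at most 0.12, without siLAPTM4B replicate 2).

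Several enzymes and regulators that act behind these receptors were among the called genes. Adenylyl cyclase 5 (*ADCY5*), which makes cAMP, was at 9.003, 8.86 and 8.89 in the siControl arrays and 8.10, 8.22 and 8.31 in the siLAPTM4B arrays, a log2 fold change of -0.71 (SE 0.07, adjusted p = 0.0023). Chosen after their values were seen, *RGS4*, which switches off G protein alpha subunits, fell by 0.53 (SE 0.05) from 11.40, 11.25 and 11.27 in the siControl arrays to 10.73, 10.78 and 10.82 in the siLAPTM4B arrays. Its relative *RGS16* fell by 0.32 (SE 0.05). The calcium- and cAMP-regulated GTPase *GEM* fell by 0.44 (SE 0.05) and the phosphodiesterase *PDE1B* fell by 0.33 (SE 0.05). The short-chain fatty acid receptor *FFAR2* (-0.49) and the orphan *GPR160* (-0.73), the latter one of the 20 largest falls, were lower as well. *ADCY5*, *RGS4*, *GEM*, *FFAR2* and *GPR160* kept their calls without any one array, and *ADCY5*, *RGS4*, *GEM* and *FFAR2* were called over all features. *RGS16* and *PDE1B* lost their calls without 5 of the 6 arrays in turn (adjusted p at most 0.11, without siLAPTM4B replicate 2).

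Axon guidance genes, which steer migrating cells as well as axons, changed in both directions, with 4 of 45 higher and 3 lower and a median of 0.0423. The class 3 semaphorins were divided: *SEMA3C* fell by 0.56 (SE 0.04) and *SEMA3E* rose by 0.35 (SE 0.05). The Eph receptors *EPHB1* (0.29) and *EPHB4* (0.29) and the ligand *SLIT1* (0.29) rose, whereas *SEMA6A* (-0.30) and the ephrin *EFNA5* (-0.21) fell. *SEMA3C* kept its call without any one array and over all features. *SEMA3E* lost the call without either siControl replicate 2 or siLAPTM4B replicate 2 (adjusted p = 0.061) and *EPHB1*, *EPHB4*, *SLIT1*, *SEMA6A* and *EFNA5* lost their calls without 5 to 6 of the 6 arrays in turn (adjusted p at most 0.19, without siLAPTM4B replicate 2).

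Solute carriers, which move nutrients and ions through membranes, were lower in 15 of 388 cases (3.87%, beside 1.78% of all genes) and higher in 1, with a median of -0.0198. The glutamate transporter *SLC1A3* read 8.16, 8.17 and 8.30 in the siControl arrays and 7.19, 7.24 and 7.23 in the siLAPTM4B arrays, a log2 fold change of -0.99 (SE 0.05, adjusted p = 0.00014). *SLC38A4*, which takes up neutral and cationic amino acids, was at 11.53, 11.48 and 11.47 in the siControl arrays and 10.61, 10.65 and 10.75 in the siLAPTM4B arrays and fell by 0.82 (SE 0.05, adjusted p = 0.0003). The sodium bicarbonate cotransporter *SLC4A4* fell by 0.63 (SE 0.07), with its siLAPTM4B arrays between 7.99 and 8.26. More amino acid carriers were lower, the cystine and glutamate exchanger *SLC7A11* (-0.62), also an NRF2 target, and *SLC7A8* (-0.52). The leucine transporter *SLC7A5* (-0.08, adjusted p = 0.43) and its partner *SLC3A2* (-0.02, adjusted p = 0.92), named after their values were seen, did not pass. The remaining falls were in *SLC35B2*, *SLC41A2*, *SLC44A1*, *SLC37A1*, *SLC4A8*, *SLC14A1*, *SLC29A1*, *SLC16A7*, *SLC25A39* and *SLC4A7*, between -0.53 and -0.20. The single rise was in the glucose transporter *SLC2A3*, by 0.22 (SE 0.05). *SLC1A3*, *SLC38A4*, *SLC4A4*, *SLC7A11*, *SLC7A8*, *SLC35B2* and *SLC14A1* kept their calls without any one array and over all features. *SLC41A2*, *SLC44A1*, *SLC37A1*, *SLC4A8*, *SLC29A1*, *SLC16A7*, *SLC25A39*, *SLC4A7* and *SLC2A3* lost their calls without 3 to 6 of the 6 arrays in turn (adjusted p at most 0.18, without siLAPTM4B replicate 2).

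Among other transport families, 3 of 45 ABC transporters were lower, *ABCC2* (-0.35), *ABCC3* (-0.30) and the cholesterol exporter *ABCA1* (-0.28), and 0 were higher. Potassium channels gave 3 falls, *KCNH7* (-0.38), *KCNN3* (-0.26) and *KCNK5* (-0.24), and 1 rise, the inward rectifier *KCNJ2* (0.33), among 87. These shares lay at 3.45% to 6.67% for falls and at most 1.15% for rises. The GTPase *RAB3B*, which serves regulated secretion and had one of the 20 largest rises, was at 8.12, 8.10 and 8.14 in the siControl arrays and 8.50, 8.54 and 8.61 in the siLAPTM4B arrays, with a log2 fold change of 0.43 (SE 0.05, adjusted p = 0.0038). *RAB3B* kept its call without any one array and over all features. *ABCC2*, *ABCC3*, *ABCA1*, *KCNH7*, *KCNN3*, *KCNK5* and *KCNJ2* lost their calls without 3 to 6 of the 6 arrays in turn (adjusted p at most 0.16, without siControl replicate 3).

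Immediate early transcription factors, which growth factor signals switch on within minutes, fell in 5 of 31 cases (16.1%, beside 1.78% of all genes) and rose in 0. The list median was -0.129, and 25 of the 31 had a negative log2 fold change. *EGR1*, a zinc finger factor, was at 11.39, 11.32 and 11.57 in the siControl arrays and 10.77, 10.79 and 10.72 in the siLAPTM4B arrays, a change of -0.67 (SE 0.07, adjusted p = 0.0026). *FOS*, a subunit of AP-1, was at 9.70, 9.61 and 9.97 in the siControl arrays and 9.11, 9.10 and 9.21 in the siLAPTM4B arrays, with the third siControl array well above the others, and changed by -0.62 (SE 0.09, adjusted p = 0.011). *FOSL2*, another AP-1 subunit, was unusually even, at 9.52, 9.45 and 9.49 in the siControl arrays and 9.18, 9.18 and 9.17 in the siLAPTM4B arrays (-0.31, SE 0.04). The orphan nuclear receptor *NR4A3* fell by 0.29 (SE 0.05) and the clock-linked repressor *BHLHE40* fell by 0.24 (SE 0.04). *JUN* (-0.39, adjusted p = 0.12), the usual partner of FOS and named after its value was seen, did not pass, although its siLAPTM4B arrays all lay below its siControl arrays. *EGR1* kept its call without any one array, and *EGR1* and *FOSL2* were called over all features. *FOS* and *FOSL2* lost the call without siLAPTM4B replicate 2 (adjusted p = 0.057) and *NR4A3* and *BHLHE40* lost their calls without 5 to 6 of the 6 arrays in turn (adjusted p at most 0.13, without siControl replicate 3).

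The stretches before *EGR1* (GRCh38.p14, chr5:138465229-138465478, plus strand) and before the smooth muscle actin gene *ACTG2* (chr2:73892758-73893007, plus strand) are shown because each holds 2 CArG boxes, the motif bound by serum response factor, in capitals. A CArG box is a run of A or T between CC and GG, and a match on one strand is also one on the other.
EGR1: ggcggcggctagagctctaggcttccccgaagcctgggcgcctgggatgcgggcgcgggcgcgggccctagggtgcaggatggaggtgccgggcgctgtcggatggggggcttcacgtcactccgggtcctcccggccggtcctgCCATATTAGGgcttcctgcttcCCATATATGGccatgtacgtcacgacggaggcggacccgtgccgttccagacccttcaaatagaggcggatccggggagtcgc
ACTG2: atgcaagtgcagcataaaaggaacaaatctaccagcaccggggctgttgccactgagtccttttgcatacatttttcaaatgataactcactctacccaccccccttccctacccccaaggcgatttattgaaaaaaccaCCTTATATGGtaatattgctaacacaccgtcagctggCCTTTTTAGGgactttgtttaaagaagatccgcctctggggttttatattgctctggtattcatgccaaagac
The boxes begin 105 and 83 bases before the start of *EGR1*, and 110 and 73 bases before that of *ACTG2*. Of 268 lower genes with a RefSeq promoter 4 had such a match within windows of 250 bases before and 50 after a start (1.49%), the others being *CPNE4* and *ASB2*. Of 82 higher genes 1 did, *NAV2* (1.22%). The share among all 14239 measured genes with a promoter was 1.7%. Of 3 more motifs searched on both strands, the AP-1 motif (TGANTCA) lay in 12.7% of lower and 14.6% of higher genes, beside 8.0% of all, and the TATA box (TATAAA) in 17.9% and 15.9%, beside 11.9%. The E-box (CACGTG) lay in 9.7% and 8.54%, beside 10.9%. These shares are descriptions and were not tested.

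*ACTG2* itself read 9.82, 9.74 and 9.99 in the siControl arrays and 9.09, 8.93 and 9.03 in the siLAPTM4B arrays, a log2 fold change of -0.84 (SE 0.07, adjusted p = 0.0019). It was the only one of 28 measured actin cytoskeleton genes and SRF targets to be called, and their median was 0.021. The related contractile genes *ACTA2* (0.04, adjusted p = 0.86), *TAGLN* (0.15, adjusted p = 0.25) and *CNN1* (0.05, adjusted p = 0.65), like the *SRF* transcript (-0.03, adjusted p = 0.81), named after their values were seen, did not pass. On a list of feedback inhibitors of ERK and related MAP kinases 2 of 26 genes fell, *DUSP16* (-0.30) and *DUSP5* (-0.27), with a list median of 0.0285. *ACTG2* kept its call without any one array and over all features. *DUSP16* and *DUSP5* lost their calls without 3 to 5 of the 6 arrays in turn (adjusted p at most 0.12, without siLAPTM4B replicate 2).

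Transcription factors of development were among the called genes in both directions, and they were picked out after their values were seen. *SIX2*, a factor of kidney progenitors, read 10.53, 10.55 and 10.56 in the siControl arrays and 10.93, 10.93 and 10.88 in the siLAPTM4B arrays, a rise of 0.37 (SE 0.04, adjusted p = 0.0044). *SOX2*, a factor of stem and airway basal cells, rose by 0.35 (SE 0.05), *PAX9* by 0.40 (SE 0.06), *MYB* by 0.38 (SE 0.06) and *HOXB8* by 0.26 (SE 0.05). Lower were *RUNX2* (-0.32), *SNAI2* (-0.32), *GATA3* (-0.35), the neighbouring homeobox genes *DLX1* (-0.22) and *DLX2* (-0.23), the glucocorticoid receptor *NR3C1* (-0.34) and the thyroid hormone receptor *THRB* (-0.41). Of 540 genes with a zinc finger symbol (ZNF, ZSCAN, ZKSCAN or ZFP) 2 rose and 0 fell. *SIX2*, *SOX2* and *RUNX2* kept their calls without any one array, and *SIX2*, *SOX2*, *RUNX2* and *SNAI2* were called over all features. *PAX9* lost the call without siControl replicate 2 (adjusted p = 0.051), *SNAI2* lost the call without siLAPTM4B replicate 2 (adjusted p = 0.052) and *MYB*, *HOXB8*, *GATA3*, *DLX1*, *DLX2*, *NR3C1* and *THRB* lost their calls without 4 to 6 of the 6 arrays in turn (adjusted p at most 0.17, without siLAPTM4B replicate 2).

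Features for microRNA genes were called in 3 of 173 cases, 2 lower (1.16%, beside 1.78% of all genes) and 1 higher (0.578%, beside 0.592%). Calls were thus no more frequent among them than among all genes. The array's probes lie on the hairpin or its primary transcript, so the signal need not follow the mature microRNA. Their mature sequences in RefSeq are shown to identify them, with the seed (bases 2 to 8), the part that pairs with target transcripts, in capitals. *MIR221* is added because hsa-miR-221-3p and hsa-miR-222-3p share their seed.
hsa-miR-21-5p: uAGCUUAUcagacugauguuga
hsa-miR-222-3p: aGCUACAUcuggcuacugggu
hsa-miR-221-3p: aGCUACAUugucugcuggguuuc
hsa-miR-181a-5p: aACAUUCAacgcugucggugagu
They lie at chr17:59841273-59841294 (plus strand), chrX:45747036-45747056 (minus), chrX:45746180-45746202 (minus) and chr9:124692480-124692502 (plus) in GRCh38.p14. *MIR21* read 8.40, 8.38 and 8.20 in the siControl arrays and 7.88, 8.03 and 7.92 in the siLAPTM4B arrays, a log2 fold change of -0.38 (SE 0.07, adjusted p = 0.026). *MIR222* fell by 0.30 (SE 0.06), at 6.44 to 6.59 after knockdown against 6.75 to 6.87, and *MIR221* differed by -0.38 (adjusted p = 0.15), which did not pass, with non-overlapping groups. *MIR181A2* rose by 0.26 (SE 0.05) at dim signal, from 5.83 to 5.95 up to 6.11 to 6.16. Host transcripts of microRNAs, chosen after their values were seen, were also lower, *MIR22HG* (-0.40) and *MIR31HG* (-0.29). *MIR22HG* kept its call without any one array and over all features. *MIR21*, *MIR222*, *MIR181A2* and *MIR31HG* lost their calls without 5 to 6 of the 6 arrays in turn (adjusted p at most 0.15, without siControl replicate 3).

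Few lysosome and autophagy genes were called. Of 41 lysosomal membrane proteins and subunits of the proton pump 0 rose and 2 fell, *LAPTM4B* and the calcium channel *MCOLN3* (-0.24, adjusted p = 0.045). Of 38 lysosomal hydrolases 1 fell, iduronate sulfatase (*IDS*), which read 11.14, 11.04 and 11.05 in the siControl arrays and 10.82, 10.78 and 10.77 in the siLAPTM4B arrays (-0.29, adjusted p = 0.019). The hydrolase list had a median of -0.0691, with 28 of 38 genes on the negative side, and at an unadjusted p under 0.05 by limma 11 were lower and 1 higher, beside 1678 and 1260 of the 19460 features. Among 52 genes of the autophagy machinery 1 rose, *TP53INP1* (0.23, adjusted p = 0.043), and 0 fell, with a median of -0.0107. The autophagy receptor *SQSTM1*, named after its value was seen, had -0.17 (adjusted p = 0.097), and *MAP1LC3B*, whose protein coats autophagosomes, had 0.00 (adjusted p = 0.99). *LAPTM4B* kept its call without any one array and over all features. *MCOLN3*, *IDS* and *TP53INP1* lost their calls without 5 to 6 of the 6 arrays in turn (adjusted p at most 0.16, without siLAPTM4B replicate 2).

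Lipid genes fell in small numbers. Of 30 genes of sphingolipid metabolism 3 fell and 0 rose, with a median of -0.04. They were the lipid phosphatase *PLPP1*, at 9.82, 9.90 and 9.97 in the siControl arrays and 9.43, 9.46 and 9.47 in the siLAPTM4B arrays (-0.44, adjusted p = 0.0042), the dihydroceramide desaturase *DEGS1* (-0.26) and the ceramide synthase *CERS6* (-0.22). Of 30 genes of lipid storage and oxidation 3 fell, the fatty acid receptor *CD36* (-0.49), the binding protein *FABP3* (-0.38) and the lipid droplet protein *PLIN4* (-0.35). Among 28 genes of cholesterol and fatty acid synthesis only *INSIG1*, a brake on that pathway, was called, at -0.27. *PLPP1* and *FABP3* kept their calls without any one array and over all features. *DEGS1*, *CERS6*, *CD36*, *PLIN4* and *INSIG1* lost their calls without 3 to 6 of the 6 arrays in turn (adjusted p at most 0.16, without siLAPTM4B replicate 2).

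Cell cycle and death genes were mostly uncalled. The CDK inhibitor *CDKN1A*, a p53 target, read 9.22, 9.18 and 9.26 in the siControl arrays and 8.75, 8.70 and 8.62 in the siLAPTM4B arrays, a log2 fold change of -0.53 (SE 0.05, adjusted p = 0.0023). Of 48 S phase genes 1 fell, *CCNE1* (-0.27), and of 54 genes of the G2 and M phases 1 rose, *HMMR*, a receptor for hyaluronan that binds the spindle, at 9.98, 10.18 and 10.14 in the siControl arrays and 10.43, 10.52 and 10.55 in the siLAPTM4B arrays (0.40, adjusted p = 0.018). The BCL2 family and death receptors gave 2 falls among 35, *CASP4* (-0.38) and *BAD* (-0.22). *NDRG1*, a gene induced by hypoxia, rose by 0.50 (SE 0.10, adjusted p = 0.045), but its siControl arrays spread from 10.83 to 11.27. *CDKN1A* kept its call without any one array and over all features. *CCNE1*, *HMMR*, *CASP4*, *BAD* and *NDRG1* lost their calls without 3 to 6 of the 6 arrays in turn (adjusted p at most 0.18, without siControl replicate 3).

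Lists with 0 calls in either direction included 23 YAP and TEAD targets (median 0.0343), 31 genes of the unfolded protein response and heat shock (-0.0344), 33 respiratory chain subunits (-0.0348) and 24 metallothioneins and zinc transporters (0.0228). At an unadjusted p under 0.05 they had 6, 0, 0 and 3 genes higher and 2, 6, 5 and 1 lower by limma. The families of histones (70), olfactory receptors (360), ribosomal proteins (96), serpins (33) and proteasome subunits (47) also had 0 called, with 4, 19, 2, 4 and 0 higher and 2, 6, 4, 1 and 2 lower at that unadjusted p. Of the targets of NRF2, the factor of the oxidative stress response, 10 of 39 fell (25.6%, beside 1.78% of all genes) and 0 rose, with a median of -0.172. *HMOX1*, heme oxygenase 1, fell the most of them, from 9.68, 9.62 and 10.01 in the siControl arrays to 8.73, 8.76 and 8.93 in the siLAPTM4B arrays. *HMOX1*, *SLC7A11* and *ME1* kept their calls without any one array, and *HMOX1*, *SLC7A11*, *ME1* and *NQO2* were called over all features. *NQO2* lost the call without siLAPTM4B replicate 2 (adjusted p = 0.057) and *GCLM*, *ABCC2*, *AKR1C3*, *ABCC3*, *UGDH* and *NQO1* lost their calls without 4 to 6 of the 6 arrays in turn (adjusted p at most 0.18, without siControl replicate 3).

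Smaller counts were spread over the remaining lists. Of the frizzled receptors of Wnt ligands *FZD7* fell by 0.37 (SE 0.05) and *FZD5* fell by 0.27 (SE 0.05), 2 of 42 Wnt pathway genes. On the axis of insulin-like growth factors, 22 genes in all, the binding protein *IGFBP4* rose by 0.33 (SE 0.05) and *PAPPA*, the protease that cleaves it, fell by 0.50 (SE 0.06). Of 36 cadherins and junction proteins *DSP*, the desmosome linker, rose (0.30) and *L1CAM* fell (-0.30). The cytokeratin *KRT7* read 9.48, 9.54 and 9.50 in the siControl arrays and 9.13, 9.11 and 9.18 in the siLAPTM4B arrays (-0.37, adjusted p = 0.0048), and with *SNAI2* and *SPARC* it made 3 falls among 21 genes of epithelial and mesenchymal state, while *CDH1* (0.04, adjusted p = 0.82) did not pass. Among 34 genes of glycolysis and hypoxia *NDRG1* and *SLC2A3* rose and *LOX* and adrenomedullin (*ADM*, -0.25) fell, and among 32 NF-kappaB targets *PTGS2* and *NFKBIZ* (-0.31) fell. *PAPPA* and *KRT7* kept their calls without any one array, and *FZD7*, *PAPPA* and *KRT7* were called over all features. *FZD7* lost the call without siLAPTM4B replicate 2 (adjusted p = 0.056) and *FZD5*, *IGFBP4*, *DSP*, *L1CAM*, *ADM* and *NFKBIZ* lost their calls without 3 to 6 of the 6 arrays in turn (adjusted p at most 0.16, without siLAPTM4B replicate 2).

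**Figure D4:**
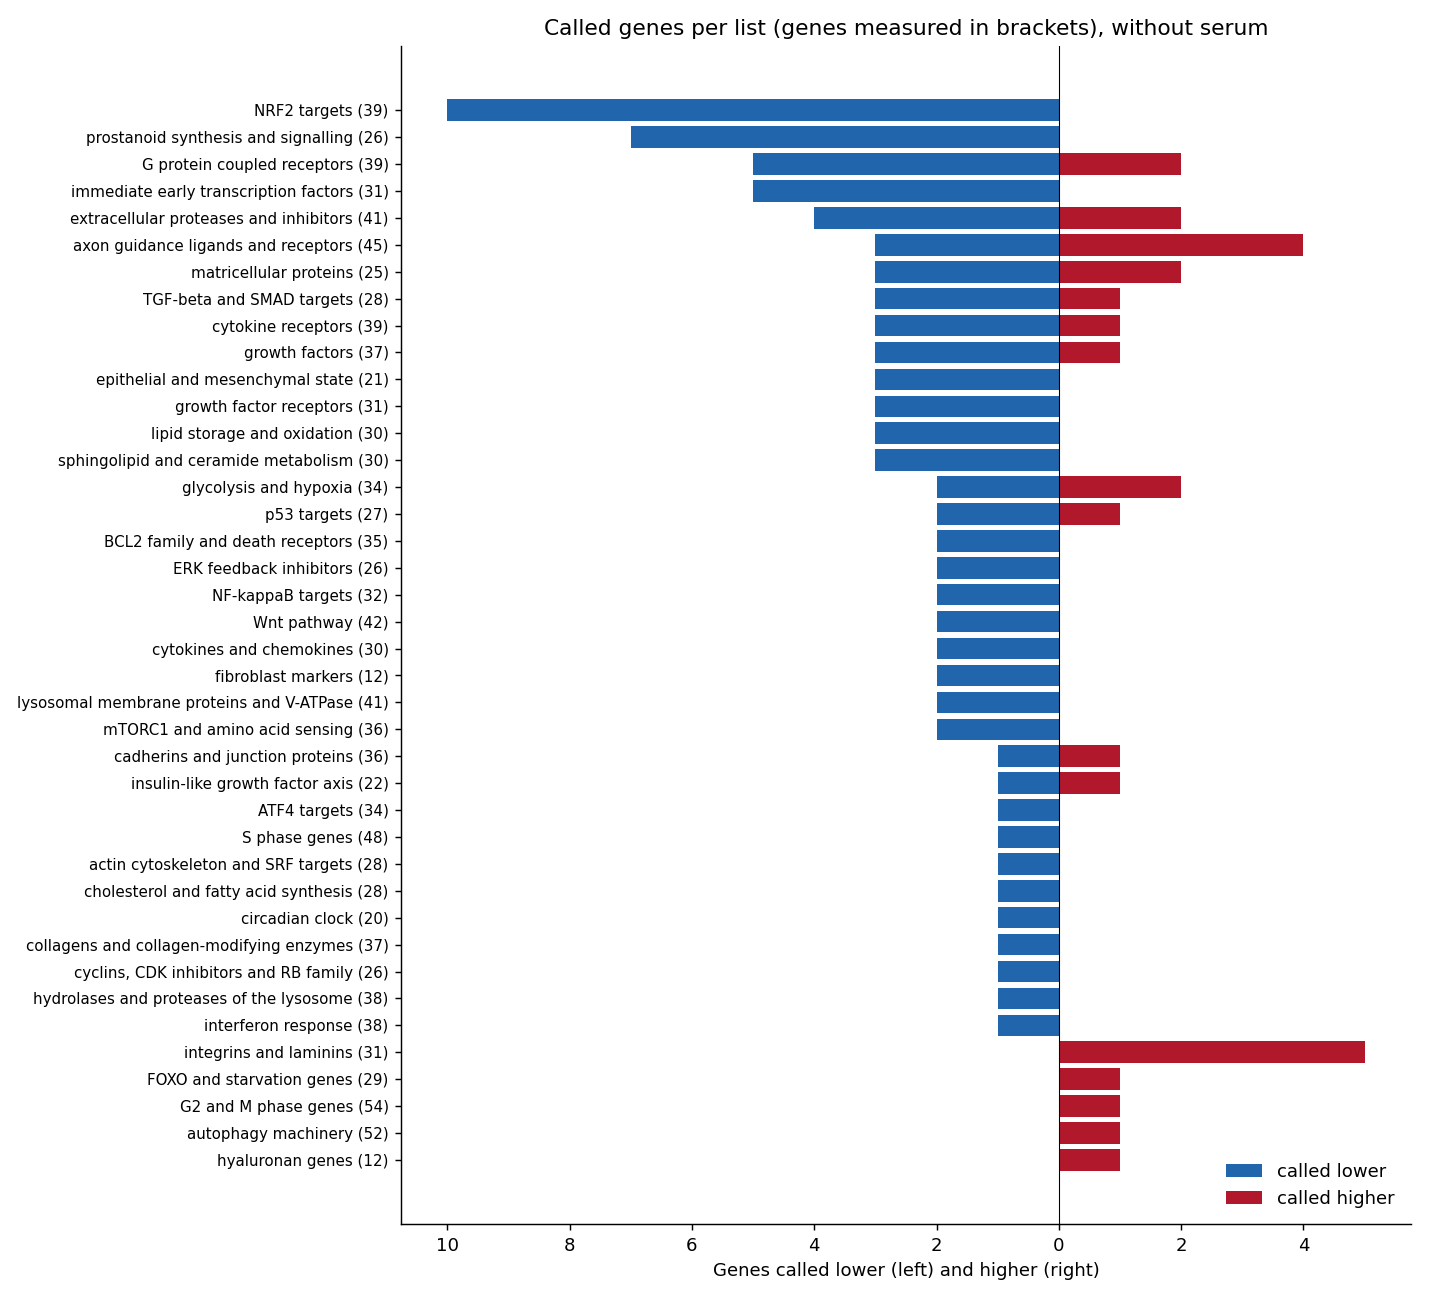
Number of genes called lower (blue, left) and higher (red, right) without serum in each list with at least 1 call, with the number of measured genes in brackets after its name. Lists share genes, for example AKR1C3 in NRF2 targets and prostanoids, and the longest bars to the left are NRF2 targets (10) and prostanoids (7), and the longest to the right is integrins and laminins (5).

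Some of the largest changes were in genes of no list. *AK5*, an adenylate kinase known from brain, read 7.24, 7.20 and 7.24 in the siControl arrays and 6.32, 6.42 and 6.37 in the siLAPTM4B arrays, a log2 fold change of -0.86 (SE 0.05, adjusted p = 0.00015). *RNF182*, a ubiquitin ligase, rose from 9.39, 9.24 and 9.23 in the siControl arrays to 9.95, 10.04 and 9.88 in the siLAPTM4B arrays (0.67, SE 0.06, adjusted p = 0.0023). *SEL1L3* fell by 0.81 (SE 0.06) and the glycosyltransferase *B3GALNT1* fell by 0.66 (SE 0.08). The doublecortin-like kinase *DCLK1* rose by 0.46 (SE 0.06), *SVIP*, an inhibitor of degradation at the endoplasmic reticulum, by 0.45 (SE 0.05), and the lectin receptor gene *KLRC3* by 0.54 (SE 0.09). The 3 trefoil factors, small secreted mucosal peptides whose genes neighbour each other and which were grouped after their values were seen, were all lower. *TFF2* read 9.72, 10.09 and 10.21 in the siControl arrays and 9.22, 9.32 and 9.37 in the siLAPTM4B arrays (-0.70), and *TFF3* and *TFF1* had log2 fold changes of -0.39 (SE 0.07) and -0.30 (SE 0.04). *AK5*, *RNF182*, *SEL1L3*, *B3GALNT1*, *DCLK1* and *SVIP* kept their calls without any one array and over all features. *TFF1* lost the call without either siControl replicate 2 or siLAPTM4B replicate 2 (adjusted p = 0.07) and *KLRC3*, *TFF2* and *TFF3* lost their calls without 3 to 5 of the 6 arrays in turn (adjusted p at most 0.11, without siControl replicate 1).

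Of 38 genes of the interferon response 1 was called, the induced GTPase *GBP2*, which has 2 features. One fell by 0.74 (SE 0.08, adjusted p = 0.0033) and kept its call without any one array and over all features. The brighter feature fell by 0.51 (SE 0.07) and lost the call without either siControl replicate 1 or siLAPTM4B replicate 2 (adjusted p = 0.057) and over all features (adjusted p = 0.06).

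Against 10% FBS, the changes without serum mostly kept their sign. Of the 339 lower features 309 also had a negative log2 fold change with 10% FBS (median -0.201), and of the 115 higher ones 105 had a positive one (median 0.254). The difference between the media was tested directly, as the interaction of siRNA and medium over all 12 arrays, and 51 of 19460 features were called for it (0.262%). Of these 51 the difference was negative for 37 and positive for 14. Among the 454 features called without serum 24 differed, 18 of them lower features whose effect was more negative without serum than with it, 3 lower features whose effect was more negative with serum, and 3 higher features whose effect was more positive without it. The 454 were chosen by their effect without serum, which favours larger effects there. Neither this split nor the medians with 10% FBS can therefore show that knockdown acts more strongly without serum. Leaving out 1 of the 12 arrays gave 19 to 51 calls of the difference, lowest without siLAPTM4B 0% FBS replicate 1.

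Several of the genes described above had a more negative effect without serum. *SRPX2* had a log2 fold change of -0.79 without and 0.04 with 10% FBS, a difference of -0.83 (SE 0.13, adjusted p = 0.017). *ADCY5* had -0.71 and -0.07, which differed by -0.63 (SE 0.08, adjusted p = 0.005). *SLC1A3* fell by 0.99 against -0.29 in serum, with a difference of -0.70 (SE 0.09, adjusted p = 0.005), and *SLC38A4* fell by 0.82 against -0.25, with -0.57 (SE 0.07, adjusted p = 0.005). *GEM*, *RDH10* and *FFAR2*, lower without serum, had estimates of 0.15, 0.06 and 0.01 with serum, and their differences were -0.59, -0.50 and -0.50. *PLAU* rose by 0.43 without serum and had -0.46 (adjusted p = 0.0015) with it. *SOX2* and the transferrin receptor *TFRC* rose by 0.35 and 0.28 without serum against estimates of -0.01 and -0.04 with it, and their differences were 0.36 and 0.31. The urea transporter *SLC14A1* fell less without serum (-0.32) than with it (-0.85), a difference of 0.53 (SE 0.07, adjusted p = 0.0083).

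**Figure D5:**
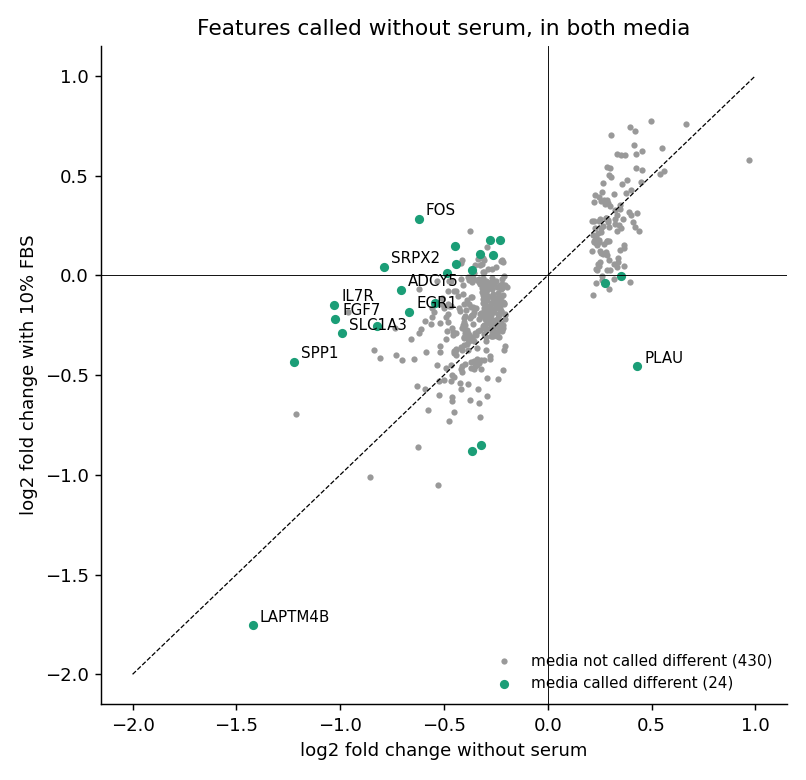
Knockdown effects as log2 fold changes, those without serum along x and those with 10% FBS along y, for the 454 features called without serum, with equal effects on the dashed line. Green points are the 24 features whose effect was called different between the media by limma's interaction test, and PLAU alone among the labelled ones lies at the lower right.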

How the data were processed

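The deposited table holds log2 signals of 12 arrays, which the authors made by RMA and, per the methods, in BRB-ArrayTools from Affymetrix Human Gene ST arrays. RMA corrects background, equalises signal distributions between arrays and sums up the probes of a feature, so a shift shared by most transcripts would be removed. The probe library and annotation version are not given in the sources used here, and the number of arrays limits the precision. Symbols came from the platform annotation: 19460 features had 1 symbol, 1754 several and 12038 none, and 19429 gene IDs were found in RefSeq.

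Knockdown without serum was fitted to its 6 arrays with lmFit and eBayes of limma 3.58.1 in R 4.3.3, with Benjamini-Hochberg adjustment over 19460 features. For lists, each gene was taken at its feature of highest mean signal in the 12 arrays. The 47 lists, of whose 1582 entries 1460 were measured, and the genes named were chosen with earlier results of these data known. Named were *LAPTM4B*, the 20 largest called falls and rises, at most 4 called genes a list each way, and the 5 most positive and most negative interactions. The positive interactions included *SLC1A5*, which is not described above, through a feature other than its brightest. At the brightest feature its difference between the media was 0.05 (adjusted p = 0.80 by limma's interaction test). Replicate numbers were not used as pairs. Promoter and microRNA sequences are RefSeq's (GRCh38.p14), and 122 list entries, unmatched, were left out. P-values measure the spread between replicates handled in one study, which are not stated to be separate transfections. The fits were tested on simulated data.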

Additional observations from a re-analysis of the deposited data

Results flagged for a closer look

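For 16 of the named genes knockdown acted differently without and with serum by limma's interaction test, and the values here are log2 fold changes without serum minus those with 10% FBS. The effect was more negative without serum for *FOS* (-0.90, SE 0.13, adjusted p = 0.0096), *IL7R* (-0.88, SE 0.07, adjusted p = 0.00021), *SRPX2* (-0.83, SE 0.13, adjusted p = 0.017), *FGF7* (-0.81, SE 0.14, adjusted p = 0.035) and *SPP1* (-0.79, SE 0.09, adjusted p = 0.0041). The same held for *SLC1A3* (-0.70), *ADCY5* (-0.63) and *SLC38A4* (-0.57), each with adjusted p = 0.005. For *EGR1* (-0.48, adjusted p = 0.042) and *FGFR2* (-0.39, adjusted p = 0.0497) it held close to the threshold of 0.05. With 10% FBS the estimates of *FOS*, *SRPX2* and *FGFR2* were on the positive side, at 0.28 (adjusted p = 0.084), 0.04 (adjusted p = 0.87) and 0.03 (adjusted p = 0.84), none of them called. *HAS2* had a difference of -0.87 (SE 0.07, adjusted p = 0.00026), with -0.14 without serum, where it was not called, and 0.73 with 10% FBS.

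On the other side, *LAPTM4B* itself fell less without serum than with it, by 0.33 (SE 0.06, adjusted p = 0.035). The difference was 0.89 (SE 0.06, adjusted p = 6.1e-05) for *PLAU*, 0.93 for *TNFSF10*, 0.93 for *LIFR* and 0.75 for *NNMT*. Without serum the last 3 genes were not called (-0.16 (adjusted p = 0.27), -0.24 (adjusted p = 0.12) and 0.04 (adjusted p = 0.91)), and *TNFSF10* and *LIFR* lay at percentiles 6.02 and 4.86 of all features by level.

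Outside the single-symbol features, 18 of 13792 features were called by limma when all features of the array were tested together, 5 with several symbols and 13 with none. Of these 11 were lower and 7 higher, and their log2 fold changes reached -1.11 and 1.84, the latter a larger rise than that of any gene with a single symbol. No gene can be named from them here.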

How the results depend on the processing

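How many features were called depended strongly on the settings, and the cause was not tested beyond what each setting changes. Against 454 (115 higher, 339 lower), limma gave 1126 (352 and 774) with a prior variance that was robust and followed intensity, 983 (321 and 662) with array weights, 687 (192 higher) with all 12 arrays in 1 fit and 134 (33 and 101) over all features. An unadjusted p under 0.01, the methods' threshold, gave 1291 (414 and 877). Student's t-test gave 27 (7 and 20) after adjustment and 1041 (385 and 656) at that threshold. The methods name it for the in vitro experiments in general and name no test for the arrays. With 1 array left out the range was 118 to 290, 25 to 69 higher and 93 to 244 lower. Calls of the difference between the media were 51, and became 163 with that prior, 157 with array weights, 79 with dim features left out, 17 over all features, 682 at the unadjusted threshold and 19 to 51 with 1 array left out.

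Replicate numbers are not stated to share a day, and for that reason they were not taken as pairs. Deviations of arrays with the same replicate number correlated at 0.387, 0.0694 and 0.184 between the siRNAs without serum. These values are all positive, and whether arrays of the same number share an effect was not tested. A replicate block gave 656 calls, 182 of them higher and 474 lower, with 440 of the 454 among them, and 84 calls of the difference. Of the 116 named genes 112 stayed on their side of the threshold under the block, 109 with arrays centred on their medians, 113 with all 12 arrays, 54 over all features and 17 by the t-test after adjustment. The sign changed under these settings only for *NNMT*, uncalled at 0.04, which ranged from -0.0457 to 0.109 with 1 array left out. With 3 arrays per group no fall smaller than 0.198 and no rise smaller than 0.214 on the log2 scale was called.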
